A study of Mus musculus with 9 samples.

Results

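The 35 genes described here encode the enzymes and carriers of fatty acid oxidation and ketone body formation, together with a few classical targets of the fatty acid receptor PPARA. They were taken by symbol from a fixed list of mitochondrial and peroxisomal oxidation genes, from which the Cyp4a hydroxylases and the acyl-CoA thioesterases were left out. All 35 symbols were found among the 27434 named genes of the table, which holds 75794 features with its long noncoding RNA (lncRNA) loci. By location, 18 act in mitochondria, 8 in peroxisomes and 9 in both, at other membranes or outside these organelles.

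Polyadenylated RNA from liver nuclei of male CD1 mice, an outbred stock, was sequenced from 4 control and 5 AAV8-STAT5ca libraries. The treated males carried, after a tail vein injection of 2e11 genome copies, an adeno-associated virus of serotype 8, which favours hepatocytes, encoding STAT5ca, a constitutively active form of STAT5b, the transcription factor that growth hormone activates in liver. Controls received the vehicle and no virus, so virus and STAT5ca cannot be told apart. Livers were taken after 4 weeks (2 control and 2 STAT5ca libraries, mice of 11 to 12 weeks) or 6 weeks (2 and 3 libraries, mice of 13 to 14 weeks). The labels do not name the promoter that drives the transgene or say that each library is a separate mouse.

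Fatty acids are bound to coenzyme A before they are burnt. Long chains then enter mitochondria as carnitine esters and are shortened there in a repeating cycle of dehydrogenation, hydration, dehydrogenation and thiolysis, which feeds electrons to the respiratory chain and, in liver, supplies acetyl-CoA for ketone bodies. Peroxisomes shorten very long and branched chains by a parallel cycle with enzymes of their own. PPARA, a nuclear receptor of hepatocytes, is known to raise the expression of genes in both organelles during fasting.

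Each value is the authors' mean RPKM of a group (reads per kilobase of collapsed exons, scaled by the library's total), so values of single libraries and standard deviations of genes were not used here. A gene was called when the authors' deposited table gave it an edgeR adjusted p under 0.05. Control libraries held 9489045 to 13144589 reads and STAT5ca libraries 11823873 to 14863490 reads, as read back from the faintest values. Hepatocyte identity was clear, the 15 hepatocyte markers lying between 83.7 and 4563 RPKM in control livers; the highest, Alb, rose to 14666 RPKM, and the other 14 were not called. Among other cell types, 4 of 15 Kupffer cell and macrophage markers rose and 0 fell, 2 of 10 lymphocyte markers rose, 1 of 8 cholangiocyte markers rose and 1 fell, 4 of 10 endothelial and 3 of 10 stellate cell markers fell, and 0 of these markers was at 0 RPKM in either group.

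Of the 35 members, 4 were called. Vnn1 and Acsl4 rose, and the peroxisomal thiolase genes Acaa1a and Acaa1b fell in the authors' deposited table. The 2 risen and 2 fallen genes are each 5.71% of the members. Among all 11699 named genes that averaged at least 1 RPKM, a level that every member reached, 6.09% were called higher and 3.95% lower, so the count of called members lies near the background in both directions. The median log2 fold of the members was 0.16 in the authors' deposited table, against 0.02 for all these named genes. A total of 27 members lay within 0.5 of 0 on the log2 scale, and 18 had an adjusted p of 1 by the authors' deposited table. In control livers the members spanned 1.10 RPKM (Vnn1) to 988 RPKM (Acaa1b), and in STAT5ca livers 4.43 RPKM (Fgf21) to 413 RPKM (Acaa1b).

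**Figure D1:**
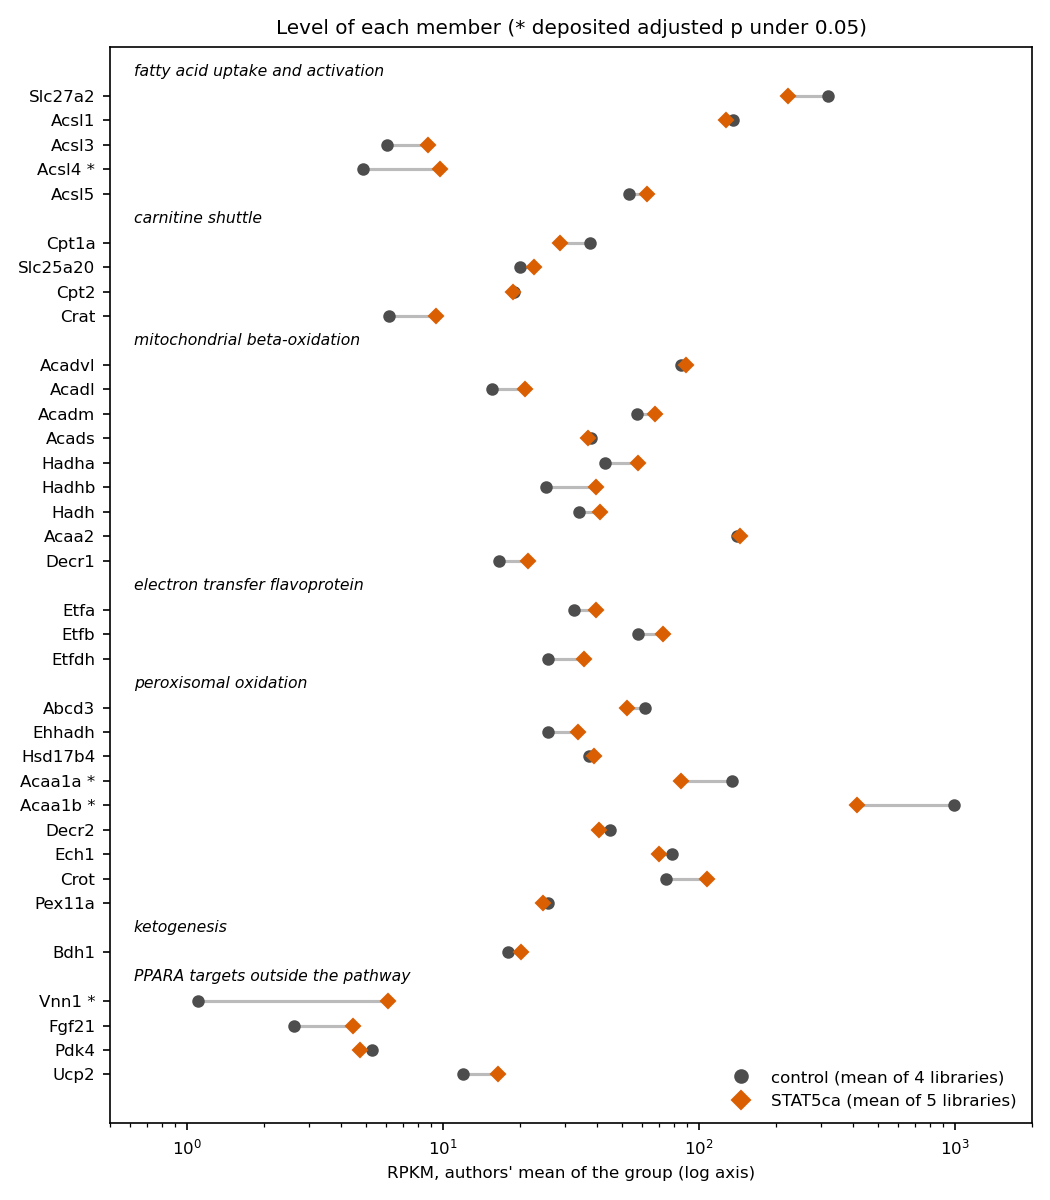
Authors' mean RPKM (log axis) of each of the 35 members in control (circles, 4 libraries) and STAT5ca livers (diamonds, 5 libraries), grouped by role, with a star for a deposited adjusted p under 0.05. The widest gaps are those of Vnn1 (1.10 to 6.10 RPKM) and Acaa1b (988 to 413 RPKM), while most pairs of symbols lie close together.

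Peroxisomal oxidation held the members that fell. Acaa1b encodes a thiolase, the enzyme of the last step of the peroxisomal cycle, and lies on chromosome 9 (119057162 to 119066211, mm9). Control livers held 988 RPKM of it, the highest level of any member, and STAT5ca livers 413 RPKM. The fall was 2.52-fold, with an adjusted p of 4.59e-05 by the authors' deposited table. By its mean level Acaa1b ranked 42 among the 11699 named genes. Its close copy Acaa1a (chromosome 9, 119250413 to 119259413, mm9) had 135 RPKM without and 84.7 RPKM with STAT5ca. That is a 1.68-fold fall with an adjusted p of 0.00436 by the authors' deposited table. Together the pair went from 1124 to 497 RPKM, and Acaa1b supplied 88.0% of this sum in control and 83.0% in STAT5ca livers.

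How well reads can separate these copies bears on both values. The longest open reading frames of the genes in the GENCODE transcripts of the GRCm38 build are 1275 bases each, 96.5% identical and free of gaps. They share 3 identical runs of at least 100 bases, the longest of 327 bases, in which reads of either gene look alike. How reads that match both copies were counted is not stated in the labels or headers, so both single values are uncertain, and their sum too if such reads were dropped. The 60 bases where they differ most, at positions 259 to 318 of the coding sequence counted from the start codon, are shown because reads over them do tell the genes apart; the 11 differing bases are in capitals.
Acaa1a: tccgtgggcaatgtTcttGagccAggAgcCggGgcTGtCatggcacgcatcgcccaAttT
Acaa1b: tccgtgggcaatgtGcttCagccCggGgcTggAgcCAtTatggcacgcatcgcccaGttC

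The other members of the peroxisomal pathway did not pass the threshold. Abcd3, the membrane transporter that imports long and branched acyl-CoA, had 61.8 and 52.4 RPKM in control and STAT5ca livers. The bifunctional enzymes that carry out the middle steps stood at 25.6 and 33.7 RPKM (Ehhadh) and at 37.1 and 38.9 RPKM (Hsd17b4). These enzymes precede the thiolases in the same cycle. Both thiolase genes were called and the genes of these enzymes were not, but a difference between the steps was not tested. Decr2, a dienoyl-CoA reductase for unsaturated chains, had 44.9 and 40.5 RPKM, and Ech1, an isomerase found in peroxisomes and mitochondria, 78.7 and 69.5 RPKM. Crot, which forms carnitine esters of shortened chains for export, was at 74.4 and 107 RPKM, with an adjusted p of 0.596 by the authors' deposited table. Pex11a, a peroxin that promotes peroxisome division and is a PPARA target, had 25.6 and 24.6 RPKM.

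Further peroxisomal genes moved in both directions. Acox2, the oxidase of branched chains and bile acid intermediates, fell from 55.1 to 34.7 RPKM (adjusted p = 0.00289 from the authors' deposited table). Of 18 further peroxisomal oxidation genes, Acox2 among them, 2 fell and 2 rose, with a median log2 fold of -0.21 in the authors' deposited table. The risen genes were Hacl1, a lyase of branched-chain alpha-oxidation (42.3 to 113 RPKM, adjusted p = 4.44e-06), and Abcd2, a transporter of very long chains (0.238 to 1.82 RPKM, adjusted p = 8.05e-13), both by the authors' deposited table. The abundant Scp2 (343 and 304 RPKM), Cat (305 and 280.0 RPKM) and Phyh (237 and 213 RPKM) did not pass. Of 15 peroxins 1 fell, Pex11g, a relative of Pex11a, from 42.4 to 17.4 RPKM (2.55-fold, adjusted p = 1.04e-12 from the authors' deposited table).

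Some lncRNA features beside or inside thiolase genes were called lower. Of 32 lncRNA features within 10 kb of a member and with a mean RPKM of at least 0.1, 0 were called higher and 3 lower, which is 9.38%; among all 10834 lncRNA features at that level 5.46% were called higher and 5.10% lower. Each of the 3 lay next to or inside a thiolase gene, a pattern chosen after the values were seen. The first, classed as antisense and 342 bases from the 3' side of Acaa1b, lies wholly within the listed bounds of another gene, Dlec1, and went from 2.01 to 0.284 RPKM (7.39-fold lower, adjusted p = 7.18e-06 from the authors' deposited table). A second, classed as intergenic and 671 bases past the 3' side of Acaa1a, went from 11.6 to 4.44 RPKM (2.76-fold lower, adjusted p = 4.27e-04 from the authors' deposited table). The remaining feature, classed as intragenic, lies between the intervals listed for the mitochondrial thiolase gene Acaa2 and went from 8.59 to 3.20 RPKM (2.80-fold lower, adjusted p = 7.18e-06 from the authors' deposited table), while Acaa2 itself had 141 and 144 RPKM. Dlec1 overlaps Acaa1b by 203 bases and had 0.583 and 0.411 RPKM, with an adjusted p of 0.583 by the authors' deposited table. Between Acaa1b and Acaa1a, which are 184.2 kb apart, 0 of 4 named genes and 0 of 4 lncRNA features were called. Of these, Oxsr1 (5.86 and 6.79 RPKM) and Myd88 (8.94 and 10.1 RPKM) were expressed. Xylb, a xylulokinase gene beyond Acaa1a, stood at 95.2 and 65.5 RPKM, with an adjusted p of 0.145 by the authors' deposited table. Whether the counting used strand is not given in the sources used here, so reads of overlapping features on opposite strands may be mixed.

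**Figure D2:**
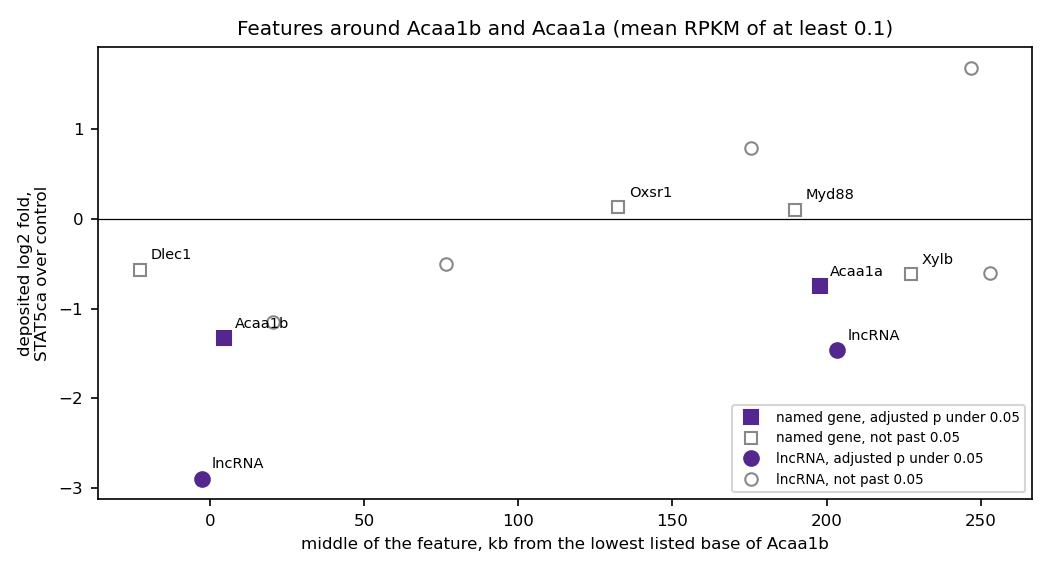
Deposited log2 fold (STAT5ca over control) of each feature with a mean RPKM of at least 0.1 around Acaa1b and Acaa1a, against the distance in kb of its middle from the lowest listed base of Acaa1b; squares are named genes, circles lncRNA features, and filled symbols have a deposited adjusted p under 0.05. The 4 filled symbols, Acaa1b, Acaa1a and a lncRNA feature beside each, lie below 0, and Oxsr1 and Myd88 between them lie close to 0.

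Mitochondrial beta-oxidation gave no call among its 9 members, whose median log2 fold was 0.21 in the authors' deposited table. Their levels summed to 455 RPKM without and 518 RPKM with STAT5ca. The acyl-CoA dehydrogenases, which take the first step for chains of decreasing length, had 85.3 and 89.0 RPKM (Acadvl), 15.6 and 20.9 RPKM (Acadl), 57.0 and 67.3 RPKM (Acadm) and 37.8 and 36.7 RPKM (Acads). None of these pairs passed, Acadl coming nearest with a 1.28-fold difference by the authors' deposited table. Hadh, the dehydrogenase of short chains, had 33.9 and 41.1 RPKM, and Decr1, the mitochondrial dienoyl-CoA reductase, 16.6 and 21.5 RPKM. Acaa2, the mitochondrial counterpart of the Acaa1 thiolases, was the most abundant mitochondrial member.

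The trifunctional protein, which carries out the later steps for long chains, came nearest to the threshold in mitochondria. Its beta subunit gene Hadhb, which holds the thiolase activity, had 25.3 RPKM without and 39.6 RPKM with STAT5ca. The difference of 1.49-fold had an adjusted p of 0.0529 by the authors' deposited table. After a new adjustment over named genes that averaged at least 1 RPKM, which leaves out the faint features, Hadhb passed at 0.0202. The alpha subunit gene Hadha had 42.9 and 58.0 RPKM, a 1.28-fold difference with an adjusted p of 0.444 by the authors' deposited table. These neighbours on chromosome 5 start in opposite directions from a shared region. Electrons from the dehydrogenases pass to the electron transfer flavoprotein, whose subunit genes had 32.6 and 39.5 RPKM (Etfa) and 57.9 and 72.6 RPKM (Etfb). Etfdh, which hands the electrons to ubiquinone, had 25.8 and 35.4 RPKM, and its adjusted p was 0.508 in the authors' deposited table. Etfdh overlaps the neighbouring Ppid by 22 bases, and Ppid had 19.4 and 26.0 RPKM.

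Entry into mitochondria by carnitine did not pass the threshold at any step. Cpt1a, the carnitine palmitoyltransferase of the outer membrane that controls the rate of entry, had 37.4 RPKM without and 28.7 RPKM with STAT5ca, with an adjusted p of 0.235 by the authors' deposited table. The translocase gene Slc25a20 stood at 19.9 and 22.6 RPKM and Cpt2, the transferase of the inner membrane, at 18.9 and 18.7 RPKM. Crat, which transfers acetyl groups, had 6.13 and 9.39 RPKM (adjusted p = 0.301 from the authors' deposited table). The 4 genes summed to 82.4 and 79.3 RPKM.

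Uptake and activation held an abundant member close to the threshold and a faint one past it. Slc27a2 encodes a transporter that is also a very-long-chain acyl-CoA synthetase, and had 320.3 RPKM without and 223 RPKM with STAT5ca. The difference of 1.52-fold missed the threshold, with an adjusted p of 0.0534 by the authors' deposited table, and passed at 0.0203 after a new adjustment over named genes that averaged at least 1. RPKM Among the long-chain acyl-CoA synthetases, Acsl1, the main liver form, had 136 and 128 RPKM and Acsl5 53.1 and 62.9 RPKM. Acsl3, found on lipid droplets and the endoplasmic reticulum, had 6.04 and 8.70 RPKM. Acsl4, which prefers arachidonic acid and other polyunsaturated chains, rose from 4.87 to 9.71 RPKM (1.90-fold, adjusted p = 0.00685 from the authors' deposited table). Its share of the summed RPKM of these 4 synthetase genes went from 2.44% to 4.64%, while that of Acsl1 went from 67.9% to 61.2%. Acsl3 overlaps Utp14b, so part of its reads may belong to either gene.

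Of the ketone body genes 1 was called, and it is no member. Bdh1, the dehydrogenase that interconverts acetoacetate and beta-hydroxybutyrate in mitochondria, had 17.9 and 20.2 RPKM. Among 6 further ketone body genes 0 rose and 1 fell. Acat1, a thiolase that joins acetyl-CoA units, had 34.7 and 37.7 RPKM. The gene that fell was Bdh2, a cytosolic relative of Bdh1, from 7.14 to 3.27 RPKM (2.27-fold, adjusted p = 0.00828 from the authors' deposited table).

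Among PPARA targets outside the pathway, Vnn1 showed the widest change of all members. It encodes vanin-1, a pantetheinase that recycles a precursor of coenzyme A, and rose from 1.10 to 6.10 RPKM (5.24-fold, adjusted p = 0.0111 from the authors' deposited table). Fgf21, a hormone that liver releases in fasting, had 2.62 and 4.43 RPKM, and its difference of 1.62-fold had an adjusted p of 0.297 by the authors' deposited table. Pdk4, the kinase that turns off pyruvate dehydrogenase, had 5.27 and 4.74 RPKM. Ucp2, a carrier of the inner mitochondrial membrane, had 12.0 and 16.4 RPKM, with an adjusted p of 0.785 by the authors' deposited table. Its neighbour Ucp3, named after its value was seen, rose from 0.00952 to 0.427 RPKM (adjusted p = 1.27e-06 from the authors' deposited table). The control value of Ucp3 is at the floor, below the 0.0190 to 0.0263 RPKM that 1 read on 1 kb is worth in control livers. Of 12 further PPARA targets 1 rose and 3 fell. Cd36, a fatty acid transporter, rose from 4.91 to 11.8 RPKM (adjusted p = 0.00363), while Retsat, a retinol saturase (51.9 to 32.1 RPKM, adjusted p = 0.0262), and Angptl4, an inhibitor of lipoprotein lipase (27.0 to 14.7 RPKM, adjusted p = 0.0326), fell, all by the authors' deposited table. Ppara itself had 29.0 and 23.4 RPKM (adjusted p = 0.305 from the authors' deposited table). Of 14 regulators of fatty acid oxidation 0 rose and 1 fell, the coactivator gene Ppargc1b (2.72 to 1.53 RPKM, adjusted p = 0.00978 from the authors' deposited table).

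Markers of other liver cells moved in both directions. Ucp2 is known to be well expressed in Kupffer cells, and Acsl4 is not restricted to hepatocytes. The 15 Kupffer cell and macrophage markers summed to 442 RPKM without and 777 RPKM with STAT5ca, all 15 with a positive log2 fold by the authors' deposited table, among them Clec4f (75.3 to 129.9 RPKM) and Cd5l (60.1 to 138 RPKM). Lymphocyte markers summed to 21.1 and 38.0 RPKM and cholangiocyte markers to 29.7 and 90.6 RPKM. Endothelial markers were lower in sum, at 463 and 314 RPKM, as were stellate cell markers, at 329 and 187 RPKM. In these bulk samples a change in the number of cells of a type and a change in RNA per cell cannot be told apart, and the part of these cells in the values of Vnn1, Acsl4 and Ucp2 was not tested.

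Set side by side, the peroxisomal members lay lower than the mitochondrial ones. Of the 18 mitochondrial members 12 had a positive log2 fold (66.7%) and 0 were called, with a median of 0.18 and a range from -0.46 (Cpt1a) to 0.58 (Hadhb) in the authors' deposited table. Of the 8 peroxisomal members 2 had a positive log2 fold (25.0%) and 2 were called lower (25.0%). Their median was -0.18, with a range from -1.33 (Acaa1b) to 0.46 (Crot) in the authors' deposited table. The 2 called are the close copies Acaa1a and Acaa1b, whose reads may be mixed, so they may not be separate calls. Among all named genes that averaged at least 1 RPKM, 51.6% had a positive log2 fold, 6.09% were called higher and 3.95% lower. The medians were 0.36 apart, and 0.25 apart without Acaa1a and Acaa1b. The ranges of the compartments overlap, and with 1 value per group the difference between them was not tested. Acaa2, Acadvl and Hsd17b4 lay within 0.04 of 0 in the authors' deposited table but had slightly higher RPKM in STAT5ca livers, so their sign depends on the scale. Genes outside the members gave the same order of medians, at -0.04 for 15 further mitochondrial oxidation genes and -0.03 for 16 respiratory chain genes, against -0.21 for 18 further peroxisomal oxidation genes and -0.16 for 15 peroxins, all in the authors' deposited table. Of those 15 mitochondrial oxidation genes and 16 respiratory chain genes 0 were called. Unlike the mitochondrial members, both lists had medians below the 0.02 of all named genes that averaged at least 1 RPKM. Of the 15 mitochondrial oxidation genes 10 had a negative log2 fold in the authors' deposited table. Both lists of further oxidation genes are broad. The mitochondrial one includes Acacb, Slc22a5 and Cpt1c, and the peroxisomal one Slc27a4, Ephx2 and Dao. Neither is therefore limited to oxidation enzymes of its organelle.

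**Figure D3:**
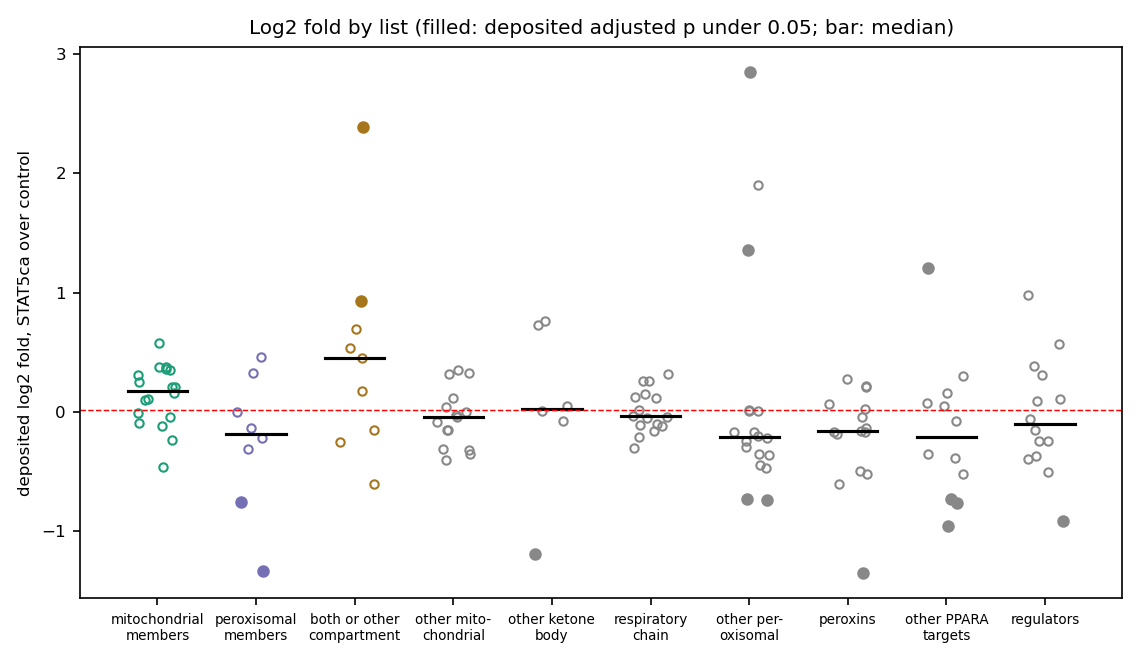
Deposited log2 fold (STAT5ca over control) of each gene by list, filled where the deposited adjusted p was under 0.05, with a black bar at each list's median and a dashed red line at the median of named genes that averaged at least 1 RPKM (0.02). The median of the mitochondrial members (0.18) lies above the line and that of the peroxisomal members (-0.18) below it, and the points of both lists overlap; the open circle near 1.90 among the other peroxisomal genes is Dao, listed at 0 RPKM without and 0.0134 RPKM with STAT5ca.

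By level, the peroxisomal sum was set by Acaa1b. The 8 peroxisomal members summed to 1393 RPKM without and 794 RPKM with STAT5ca, and the 18 mitochondrial members to 683 and 777 RPKM. The ratio of the sums was 2.04 in control and 1.02 in STAT5ca livers. Acaa1b made up 71.0% of the peroxisomal sum in control and 52.0% in STAT5ca livers. Without it the 7 remaining genes summed to 404 and 381 RPKM, and without both Acaa1 genes the 6 remaining summed to 269 and 297 RPKM. The sum of those 6 genes was thus not lower in STAT5ca livers, but this rested on Crot, which was not called. Crot went from 74.4 to 107 RPKM, a larger gain than that of the sum. Of the 6, only Crot and Ehhadh (25.6 and 33.7 RPKM) had a positive log2 fold in the authors' deposited table. Acaa1a and Acaa1b alone passed the test among the peroxisomal members.

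**Figure D4:**
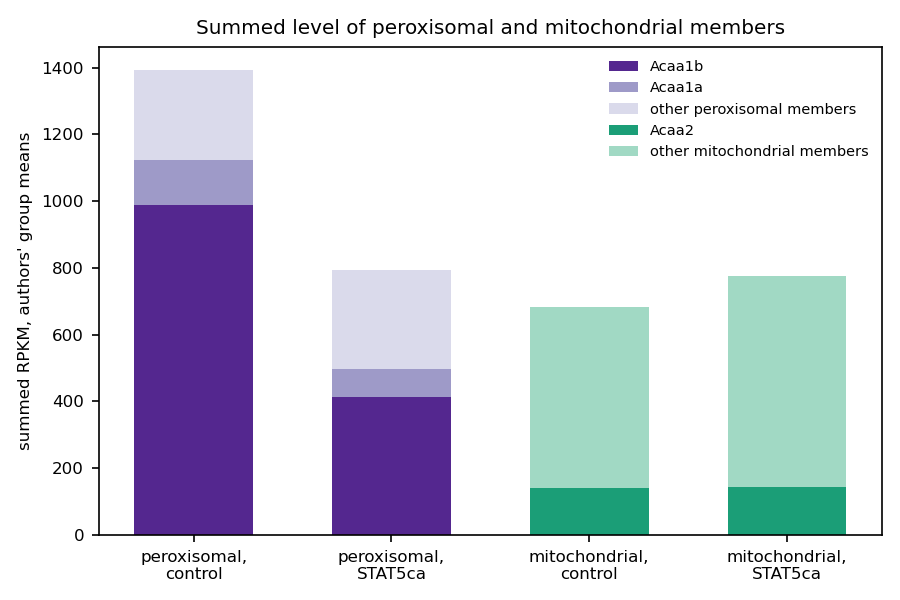
Summed RPKM (authors' group means, linear axis from 0) of the 8 peroxisomal and 18 mitochondrial members in control and STAT5ca livers, stacked by gene. The Acaa1b part of the peroxisomal bar shrinks from 988 to 413 RPKM, and the mitochondrial bars reach 683 and 777 RPKM.

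Across the members, negative folds were more frequent among the abundant genes. The 5 with the highest mean RPKM, Acaa1b, Slc27a2, Acaa2, Acsl1 and Acaa1a, all had a negative log2 fold in the authors' deposited table, that of Acaa2 (-0.04) turning positive on the RPKM ratio. Of the 10 with the lowest mean RPKM, 8 had a positive one. Spearman's rho of mean RPKM and log2 fold was -0.57 over the 35 members, and -0.12 over the 11699 named genes that averaged at least 1. RPKM The points are genes of the same 9 libraries, and the values are a description.

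**Figure D5:**
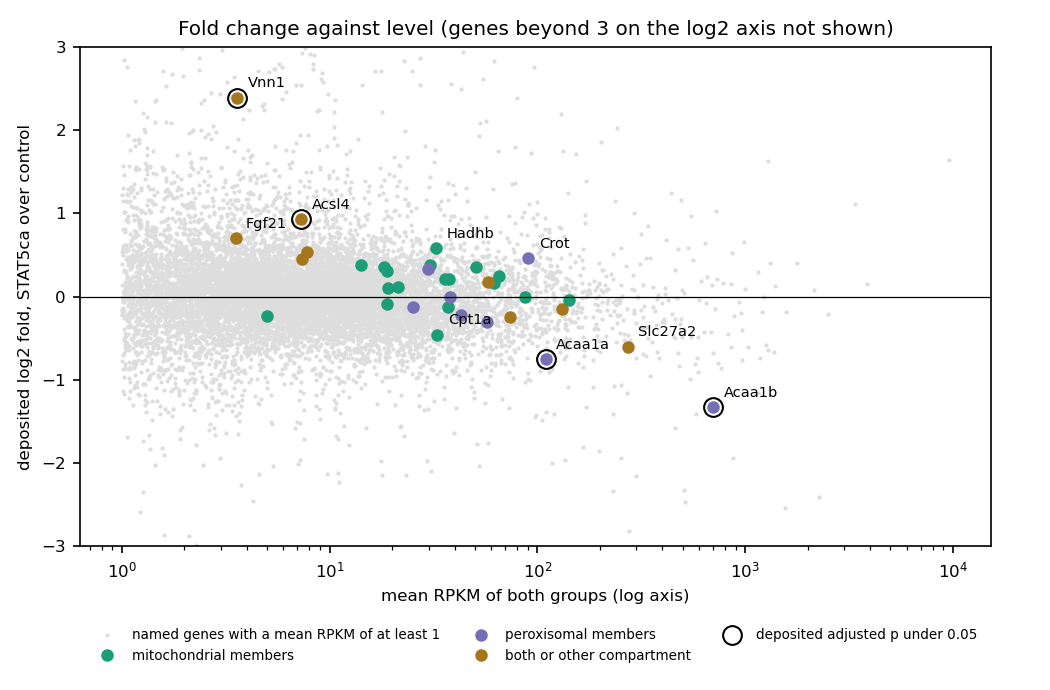
Deposited log2 fold (STAT5ca over control) against the mean RPKM of both groups (log axis) for the 35 members, coloured by compartment, over all named genes that averaged at least 1 RPKM in grey; rings mark members with a deposited adjusted p under 0.05. Members drop from Vnn1 (2.39) at the upper left to Acaa1b (-1.33) at the lower right, and most lie within 0.5 of 0.

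Motifs of the receptor and of STAT5 were looked for in promoter windows of the members. RefSeq windows of the GRCm38.p6 build, from 250 bases before to 50 after a gene's start, matched 30 of the 35 members with 33 windows; Acaa2, Crat, Decr1, Hsd17b4 and Vnn1 did not match. PPARA binds with RXR to direct repeats of the hexamer AGGTCA spaced by 1 base. Such a repeat, with up to 2 mismatches on either strand, was in 2 of the 33 windows (6.06%, Etfa and Slc25a20) and in 3.86% of all 32851 windows. The hexamer AGGTCA alone, on either strand and counted also inside repeats, was in 4 (12.1%, Slc27a2, Acadm, Acadvl and Cpt1a) against 16.3% of all windows. TTCNNNGAA, the palindrome that STAT5 binds, was in 3 (9.09%, Cpt2, Hadha and Hadhb) against 8.30% of all windows. The windows of Hadha and Hadhb overlap by 228 bases and share 1 copy.

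The 250 bases before the start are printed for the fallen thiolase genes, in which no searched motif was found, and for Hadhb, where capitals mark the STAT5 palindrome. Acaa1b is at chr9:119157094-119157343 on the minus strand, Acaa1a at chr9:119341044-119341293 on the plus strand and Hadhb at chr5:30155003-30155252 on the plus strand, all in GRCm38.p6, which is not the build of the values.
Acaa1b: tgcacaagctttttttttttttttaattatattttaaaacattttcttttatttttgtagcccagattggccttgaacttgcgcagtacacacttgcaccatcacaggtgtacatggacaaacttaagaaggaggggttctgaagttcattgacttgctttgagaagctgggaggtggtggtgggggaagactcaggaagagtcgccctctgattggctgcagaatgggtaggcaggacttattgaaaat
Acaa1a: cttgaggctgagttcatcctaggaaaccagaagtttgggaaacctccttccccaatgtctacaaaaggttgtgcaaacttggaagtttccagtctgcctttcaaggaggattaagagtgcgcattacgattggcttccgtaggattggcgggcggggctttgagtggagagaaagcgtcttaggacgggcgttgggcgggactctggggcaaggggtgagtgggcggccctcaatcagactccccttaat
Hadhb: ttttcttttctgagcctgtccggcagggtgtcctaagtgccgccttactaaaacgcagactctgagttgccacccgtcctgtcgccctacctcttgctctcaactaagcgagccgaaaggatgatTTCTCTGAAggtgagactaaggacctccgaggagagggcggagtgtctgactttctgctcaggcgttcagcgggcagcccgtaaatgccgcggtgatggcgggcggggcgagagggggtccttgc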

How the data were processed

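Polyadenylated nuclear RNA was measured in 9 liver libraries (4 control, 5 STAT5ca). Per the submitters' processing notes, the authors used STAR, featureCounts and edgeR, listed without versions, and the mm9 build. For each feature the authors deposited 1 RPKM per group over collapsed exons, a signed fold change (a score, positive for STAT5ca over control, negative for the reverse) and an adjusted p-value headed as edgeR's, per the file headers. For the adjustment method, covariates and strand setting: not given in the sources used here. Times are pooled, so the comparison holds 4-week and 6-week livers together.

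Since the table holds no values per library, no model was fitted, and p-values reflect the spread between libraries only through the authors' test; that spread may be technical. Library totals came from lncRNA features of 1 interval holding 1 read, whose RPKM is worth 0.0135 to 0.0263 per read and kb. Interval starts proved to count from 0, so 1 was added. Members, lists and the features set beside them were chosen with earlier results of these data known. The genes named are all members and, from further lists, those past the threshold and the most abundant, a few of which are not reported here. P-values were adjusted again as Benjamini-Hochberg values from an upper bound of each p, which assumes a step-up adjustment. The steps were tested on simulated data. Python 3.11.15, pandas 2.3.3, NumPy 2.4.6, SciPy 1.17.1 and Biopython 1.88 were used.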

Additional observations from a re-analysis of the deposited data

How the results depend on the processing

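Calls depended on the limits chosen. At an adjusted p under 0.01, 1 member rose and 2 fell, Vnn1 (0.0111) being lost, and at a minimum of 2-fold 1 rose and 1 fell, Acsl4 (1.90-fold) and Acaa1a (1.68-fold) being lost, all by the authors' deposited table. At a minimum of 1.5-fold all 4 calls stayed. After a new adjustment over named genes that averaged at least 1 RPKM, Slc27a2 (0.0203) and Hadhb (0.0202) passed too, as over those that averaged at least 0.1 (0.0194 and 0.0192). The 0.36 between the medians of the compartments became 0.25 without Acaa1a and Acaa1b, a choice made after seeing the data. The summed peroxisomal RPKM of STAT5ca over control was 0.570 with all members, 0.943 without Acaa1b and 1.10 without both Acaa1 genes. On the plain RPKM ratio the log2 values of Acadvl, Acaa2 and Hsd17b4 turned positive (0.06, 0.03 and 0.07), and over the total RPKM those of Acadvl and Hsd17b4 did (0.03 and 0.04); the deposited log2 fold of named genes lay 0.07 below that ratio at the median. The medians of the members and of both compartments moved by less than 0.1 under every other pseudocount, scaling and level limit tried. No paired analysis was possible because the table gives 1 value per group, and leaving out single libraries was not run for the same reason. Depth limits the faint members most, above all Vnn1 and Fgf21.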
